A study of Mus musculus with 4 samples.

Results

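Cd55, Bst1, Clec2h and Pmp22 are 4 genes for proteins of the cell membrane whose RNA was far higher in villus enterocytes than in intestinal stem cells. They were taken as a set because they stood among the largest enterocyte minus stem differences of mean log2 value, so that difference chose them and is described here without a test. The set is 4 of 12393 genes measured, and it is covered by 8 probe sets, the groups of short probes that read a gene on the array. Where a gene has several, the one with the highest mean stands for it, and the others are given too.

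The 4 Affymetrix mouse arrays were hybridised with RNA of the proximal intestinal epithelium; the mice were C57BL/6, between 4 and 6 weeks old. The stem group, 2 arrays, held Lgr5(hi) cells that were isolated from wild-type mice by flow sorting; Lgr5 is a receptor that marks the stem cells at the crypt base. The enterocyte group, 2 arrays, held differentiated villus cells released with EDTA from mice with a conditional knockout of Atoh1, which encodes a transcription factor required for secretory cells. Tamoxifen at 1 mg per day for 5 days and a wait of 5 days are given for all 4 samples, also for the wild-type ones, while the sources used here do not give the driver of the Cre recombinase. Each group has 2 biological replicates by its labels, but no animals are named, so the p-values given for other genes measure the spread between these samples. Cell type, genotype and way of isolation change together between the groups and cannot be told apart.

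The array medians lay between 102.4 and 110.6 intensity units. Atoh1 was 7.43 and 7.71 on the log2 scale in the stem samples and 5.06 and 5.28 in the enterocyte samples, and Lgr5 was 11.33 and 10.96 against 6.92 and 6.09. Of the 12393 genes, 18.2% were called higher and 22.4% lower in enterocytes (adjusted p below 0.05 by limma), against all 17 measured enterocyte markers called higher and 12 of 13 stem cell markers called lower, the direction the labels give. Of 64 control probe sets, 10 were at least 2-fold higher and 8 at least 2-fold lower in the enterocyte arrays, and the part of array processing in the differences below was not tested. A background level was set at log2 6.45, the 90th percentile over 29 genes that serve other organs, among them eye, heart and testis, of their mean levels. A fold against a group whose arrays all lay below that level is a bound, written "at least", with the dim arrays raised to that level.

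As background, the 4 proteins work at the cell surface in different ways. CD55, also called decay-accelerating factor, is held in the membrane by a glycosylphosphatidylinositol (GPI) lipid anchor and breaks up the enzyme complexes that activate complement on a cell. BST1, or CD157, is a GPI-anchored ectoenzyme of the ADP-ribosyl cyclase family, which turns NAD into cyclic ADP-ribose outside the cell; in the gut it is known from Paneth cells, the neighbours of the stem cells. Clec2h encodes a C-type lectin-like protein, also called Clr-f, that spans the membrane and is a ligand of receptors of the NKR-P1 family on lymphocytes. PMP22 is a protein with a tetraspan fold, best known from the myelin of Schwann cells and also found in epithelia. The arrays measured RNA, so neither the protein on the surface nor a position along the villus was observed.

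RefSeq windows before the start sites of 3 of the 4 genes are shown so that the stretch ahead of each can be read beside its values. Bst1 had no window in the sequences used here. Each shown window holds the 250 bases before a RefSeq start in build GRCm38.p6, written 5′ to 3′ on the strand of the gene: Cd55 at chr1:130462745-130462994 on the minus strand, Clec2h at chr6:128662135-128662384 on the plus strand, and the outermost and the next of 4 Pmp22 starts at chr11:63128732-63128981 and chr11:63131207-63131456 on the plus strand. Capitals mark CCGCCC (the GC box) and AAAGTCC (letters of a site of the HNF4 factors), searched on both strands; these motifs were chosen after the sequences were seen.
Cd55: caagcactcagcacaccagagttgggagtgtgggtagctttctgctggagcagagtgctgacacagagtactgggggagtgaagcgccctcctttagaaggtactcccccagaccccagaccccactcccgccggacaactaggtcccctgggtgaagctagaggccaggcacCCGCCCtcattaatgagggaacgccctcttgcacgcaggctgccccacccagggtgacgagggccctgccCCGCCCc
Clec2h: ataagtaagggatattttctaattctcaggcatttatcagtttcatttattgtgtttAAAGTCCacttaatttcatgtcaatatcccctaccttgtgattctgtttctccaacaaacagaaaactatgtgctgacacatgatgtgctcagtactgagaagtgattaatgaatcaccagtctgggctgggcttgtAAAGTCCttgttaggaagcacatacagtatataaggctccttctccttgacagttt
Pmp22 outermost start: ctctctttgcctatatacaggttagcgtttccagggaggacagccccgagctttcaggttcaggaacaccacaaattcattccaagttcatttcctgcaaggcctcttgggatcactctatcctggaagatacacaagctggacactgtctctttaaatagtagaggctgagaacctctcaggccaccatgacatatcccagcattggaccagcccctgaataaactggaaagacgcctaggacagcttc
Pmp22 next start: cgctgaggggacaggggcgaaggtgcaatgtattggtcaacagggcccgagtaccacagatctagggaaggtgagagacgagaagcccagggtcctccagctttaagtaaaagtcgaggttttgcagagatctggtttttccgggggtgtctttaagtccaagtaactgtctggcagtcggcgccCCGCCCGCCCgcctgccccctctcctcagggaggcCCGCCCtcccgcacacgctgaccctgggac

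Of the 6 windows, 3 held CCGCCC and 1 held AAAGTCC. That of Cd55 held 64.0% G and C with 8 CpG pairs, and CCGCCC began 77 and 7 bases before the start. That of Clec2h held 37.2% G and C with 0 CpG pairs, and AAAGTCC began 193 and 56 bases before the start. The 4 Pmp22 windows ran from 48.8% to 73.6% G and C, with 3 CpG pairs at the outermost start and 14 at the next, where CCGCCC began 65, 61 and 30 bases before the start, the matches at 65 and 61 overlapping. The innermost Pmp22 window, not shown, held 27 CpG pairs, with CCGCCC 17 bases before the start and, on the opposite strand, 153 and 148 bases before it; the window between held 14 CpG pairs and neither motif. Over all 32851 RefSeq windows of this length the median was 52.4% G and C with 6 CpG pairs, 32.7% held CCGCCC and 3.58% held AAAGTCC. In none of the 6 windows of Cd55, Clec2h and Pmp22 were the letters TATAAA of the TATA box found (12.4% of all windows), nor AGATAA of GATA factors (9.99%), nor TTTATG of CDX factors (10.8%), nor GTTAAT of HNF1 (6.43%). Only these exact letters were searched, so variants of a motif were not counted, such as tatataag near the end of the Clec2h window. A match is a description of the letters and no evidence of a site in use. A lack of a match is no evidence that a site is absent.

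Pmp22 had a single probe set, 1417133_at. On the log2 scale it was 4.72 and 4.62 in the stem samples and 11.39 and 11.54 in the enterocyte samples, that is 26.4 and 24.53 against 2691 and 2982 intensity units. Both stem arrays lay below the background level, and the gap between the lowest enterocyte and the highest stem array was 6.67 on the log2 scale. The difference of means was 6.80 with an SD of 0.129 (from the SDs of both groups, n = 2 each), which is 111-fold as measured and at least 32.5-fold over background. These are bulk samples, in which fewer cells of a type and less RNA per cell cannot be told apart.

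Cd55 had 2 probe sets that gave the same direction with unlike sizes. The brighter, 1460242_at, was 4.94 and 4.86 in the stem samples and 11.71 and 11.65 in the enterocyte samples (log2), both stem arrays being below background. Its difference was 6.78 with an SD of 0.0704, 110-fold as measured and at least 37.5-fold over background. The dimmer, 1418762_at, was 5.85 and 6.25 in the stem samples and 8.85 and 10.13 in the enterocyte samples. It differed by 3.44 with an SD of 0.95, 10.9-fold as measured and at least 8.23-fold over background. The enterocyte replicates of the dimmer lay 1.28 apart, more than on any other of the 8 probe sets, against 0.06 on the brighter. The mean over both probe sets gave 5.11.

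Both probe sets of Bst1 showed a wide gap. On the brighter, 1449453_at, the log2 values were 5.51 and 5.14 in the stem samples and 12.01 and 11.96 in the enterocyte samples, a difference of 6.66 with an SD of 0.265. That is 101-fold as measured and at least 46.5-fold over background. The dimmer, 1449454_at, was 3.88 and 3.73 against 11.03 and 11.13, a difference of 7.27 with an SD of 0.128. Its stem values lay far below the background level, and its fold was at least 24.8 over background, a lower bound than on the brighter probe set. The stem replicates on 1449453_at lay 0.37 apart, the widest gap between replicates among the probe sets standing for the 4 genes.

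Clec2h was the only one of the 4 genes whose stem arrays both lay above the background level on the probe set that stands for it. On 1431240_at it was 7.20 and 7.06 in the stem samples and 13.85 and 13.83 in the enterocyte samples (log2), or 146.6 and 133.2 against 14776 and 14569 intensity units. The difference was 6.71 with an SD of 0.0987, a 105-fold one. On 1451438_s_at the values were 6.53 and 6.28 against 12.95 and 12.98, a difference of 6.56, 94.6-fold. On 1424673_at they were 8.05 and 7.66 against 11.91 and 11.71, a difference of 3.96, 15.5-fold. The 3 probe sets thus agreed in direction, while the size on 1424673_at was far below that of the others. The name ending in s_at marks a probe set that may also read related transcripts.

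**Figure D1:**
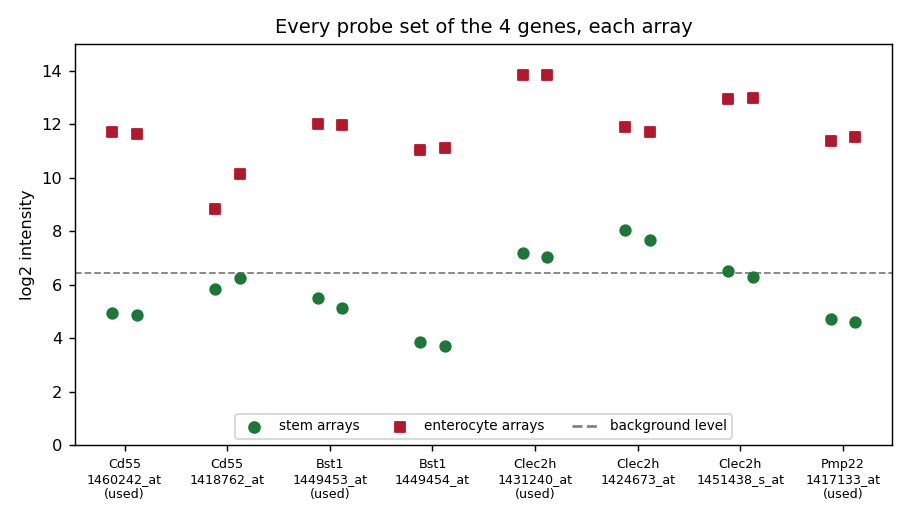
Log2 intensity (vertical axis) of the 8 probe sets of Cd55, Bst1, Clec2h and Pmp22, with 1 point for each array: circles for the 2 stem arrays, squares for the 2 enterocyte arrays, replicate 1 to the left. Of the 8 probe sets, 1418762_at of Cd55 and 1424673_at of Clec2h show the smallest gaps between the groups, and the dashed line is the background level of 6.45.

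The 8 genes with the largest measured differences among all 12393 were the 4 genes themselves and 4 others. Egln3, an oxygen-sensing prolyl hydroxylase, differed by 7.74, Slc13a1, a sulfate transporter, by 6.74, Enpp3, an ectoenzyme that splits nucleotides, by 6.63, and Ada, adenosine deaminase, by 6.58. Just inside the set lay Bst1 at 6.66 and just outside it Enpp3, closer than the SD of Bst1, so the list has no natural edge here. The other probe sets of Enpp3 gave 0.12, 3.23, 7.24 and 7.40, so its place in the order depends on the probe set. The order among the 4 genes carries no meaning, since the stem arrays of Pmp22, Cd55 and Bst1 lay below background: by their bounds Bst1, at least 46.5-fold, came before Cd55, at least 37.5-fold, and Pmp22, at least 32.5-fold. In all, 119 genes differed by at least 4 and 16 genes by at least 6 on the log2 scale as measured.

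**Figure D2:**
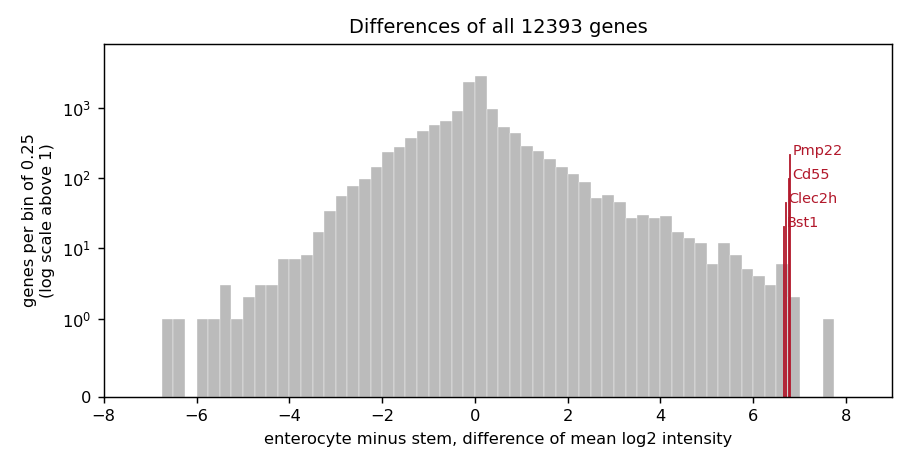
Number of genes (vertical axis, log scale above 1) by enterocyte minus stem difference of mean log2 intensity (horizontal axis), for all 12393 genes in bins of 0.25. The lines mark Bst1, Clec2h, Cd55 and Pmp22 between 6.66 and 6.80, at the far right of the range; their heights carry no value.

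Likeness was measured as the root mean square difference between the log2 values of a pair of genes over the 4 arrays, each gene centred on its own mean. The gene most like Cd55 was Clec2h at 0.0392, then Pmp22 at 0.0734 and Enpp3 at 0.111. For Bst1 these were Clec2h at 0.087, Slc13a1 at 0.0907 and Cd55 at 0.117. For Clec2h they were Cd55, Pmp22 and Bst1, and for Pmp22 they were Cd55, Clec2h and Bst1, the last at 0.134. Over 4 arrays, and with stem values below background for 3 of the 4 genes, this mostly ranks genes by a like difference between the groups, which is what the 4 genes were chosen for.

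The relatives of the 4 genes were then counted in 7 lists of related function, with the 4 genes left out. By limma, with Benjamini-Hochberg adjustment over all genes, 40.6% of all genes passed the threshold of 0.05 in either direction, and the median difference was -0.00261. Of 131 measured related genes 32 rose and 15 fell, which is 35.9%, at a median of 0.08. The relatives as a whole were therefore called about as often as all genes. These calls need all the arrays: without stem replicate 1 or without stem replicate 2 limma called 0 of the 131, with 50 and 52 at an unadjusted p below 0.05. Without enterocyte replicate 1 it called 12 higher and 4 lower, and without enterocyte replicate 2 it called 10 higher and 3 lower.

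Other regulators and receptors of complement were mostly dim and went both ways. Of 15 measured, 4 rose, 3 fell and 8 did not pass the test (46.7% called against 40.6% of all genes). The median was 0.00, and 10 lay below background in both groups on their group means. Cd55b, the gene next to Cd55 and its closest relative, was 5.42 and 5.47 in the stem samples and 4.96 and 4.88 in the enterocyte samples. It differed by -0.53 ± 0.06 SE (adjusted p = 0.0117 by limma), below background throughout. Cd59a, a GPI-anchored inhibitor of the membrane attack complex, was 7.43 and 7.68 against 6.08 and 5.92 and fell at least 2.16-fold over background (adjusted p = 0.00628 by limma). Its other, dimmer probe set gave -0.24 and did not pass. Adgre5, or CD97, a receptor that binds CD55, was 7.98 and 8.04 against 7.36 and 7.40, a 1.54-fold fall (adjusted p = 0.00729 by limma). Cr1l, which encodes the membrane regulator Crry, was 9.91 and 9.86 against 10.55 and 10.19 and did not pass (adjusted p = 0.09 by limma). Itgb2, a chain of leukocyte complement receptors, differed by 1.44 and C4bp, a soluble inhibitor, by 0.64, both below background in both groups. The 4 higher calls became 2 with the dimmest probe set and 1 with centring on reference genes, which made the lower calls 8. All 4 genes called higher, Itgb2, C4bp, Serping1 and C3ar1, lay below background in both groups. Without genes below background none of them was tested, and the 1 gene then called higher was another one.

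Among complement components 4 of 18 rose, 2 fell and 12 did not pass (33.3% called against 40.6% of all genes). The median was 0.06, with 14 below background in both groups. Mbl2, a mannose-binding lectin that starts the lectin pathway, was 4.67 and 4.70 in the stem samples and 10.51 and 10.45 in the enterocyte samples. It rose at least 16.4-fold over background, 55.4-fold as measured (adjusted p = 0.00225 by limma). The convertase components Cfb and C2 rose 2.02-fold and 1.95-fold, and C1ra, a protease of the classical pathway, fell at least 1.75-fold over background. C3 and C4b were not analysed here.

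Around Bst1, genes of NAD synthesis and breakdown changed in 6 of 23 cases, 4 higher and 2 lower (26.1% called against 40.6% of all genes). The other 17 did not pass the test, and the median was 0.09. Enpp3 was 7.13 and 7.21 in the stem samples and 13.90 and 13.69 in the enterocyte samples and rose 98.7-fold (adjusted p = 0.00231 by limma). It has 5 probe sets, whose differences were 0.12, 3.23, 6.63, 7.24 and 7.40, so that the dimmest, 1425353_at, did not show the rise. Nt5e, a GPI-anchored nucleotidase, was 5.29 and 5.41 against 7.54 and 7.23 and rose at least 1.91-fold over background, 4.09-fold as measured (adjusted p = 0.00491 by limma). Nampt, the rate-limiting enzyme of NAD salvage, rose 2.93-fold, although its dimmer probe set at 0.68 did not pass, and Nadk, which turns NAD into NADP, rose 2.74-fold. The NAD-consuming Parp2 and Parp1, enzymes of the DNA damage response, fell 2.56-fold and 2.10-fold. Parp1 differed by -1.07 on the log2 scale on that probe set, and by -1.83 and -2.58 on its others. Cd38, the other ADP-ribosyl cyclase, was not analysed here.

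Among the other measured Clec2 lectins, Clec2d, Clec2g and Clec2i, no difference passed the test. Of 10 measured Clec2 lectins, NKR-P1 receptors and related lectin-like receptors, 1 rose and 9 did not pass by limma. That is a smaller share called than the 40.6% of all genes. The median was 0.05, and 8 of the 10 lay below background in both groups. Clec2d, which encodes a ligand of the inhibitory receptor NKR-P1B, was 10.28 and 10.23 in the stem samples and 10.28 and 10.17 in the enterocyte samples, a difference of -0.03 ± 0.07 SE. Clec2g was 3.98 and 4.15 against 3.84 and 3.88, and Clec2i was 3.97 and 4.16 against 4.16 and 3.85, all below background. The gene that rose was Klrd1, a chain of natural killer receptors found on lymphocytes, at 4.05 and 4.51 against 7.23 and 7.61 (at least 1.96-fold over background, adjusted p = 0.00571 by limma). Centring the arrays on reference genes gave Clec2d -0.41, Clec2g -0.59 and Clec2i -0.45, each then past the threshold as lower. Clec2e was not analysed here.

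In the family of Pmp22, 3 of 6 relatives rose and 1 fell, while 2 did not pass (66.7% called against 40.6% of all genes). The median was 1.01. Emp1, an epithelial membrane protein with the same fold, was 5.97 and 5.58 in the stem samples and 11.86 and 11.92 in the enterocyte samples. It rose at least 43.5-fold over background, 69.3-fold as measured (adjusted p = 0.00261 by limma). Emp2 was 8.56 and 8.50 against 6.34 and 6.89 and fell 3.78-fold (adjusted p = 0.0116 by limma), but its dimmest probe set, 1425273_s_at, gave 0.25 and did not pass. Emp3 was 4.73 and 4.86 against 4.98 and 4.86, below background in both groups, with a difference of 0.13 ± 0.09 SE. Perp, a desmosomal protein of epithelia, rose 4.73-fold, and Nkg7, a granule protein of cytotoxic lymphocytes, rose at least 1.39-fold over background.

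**Figure D3:**
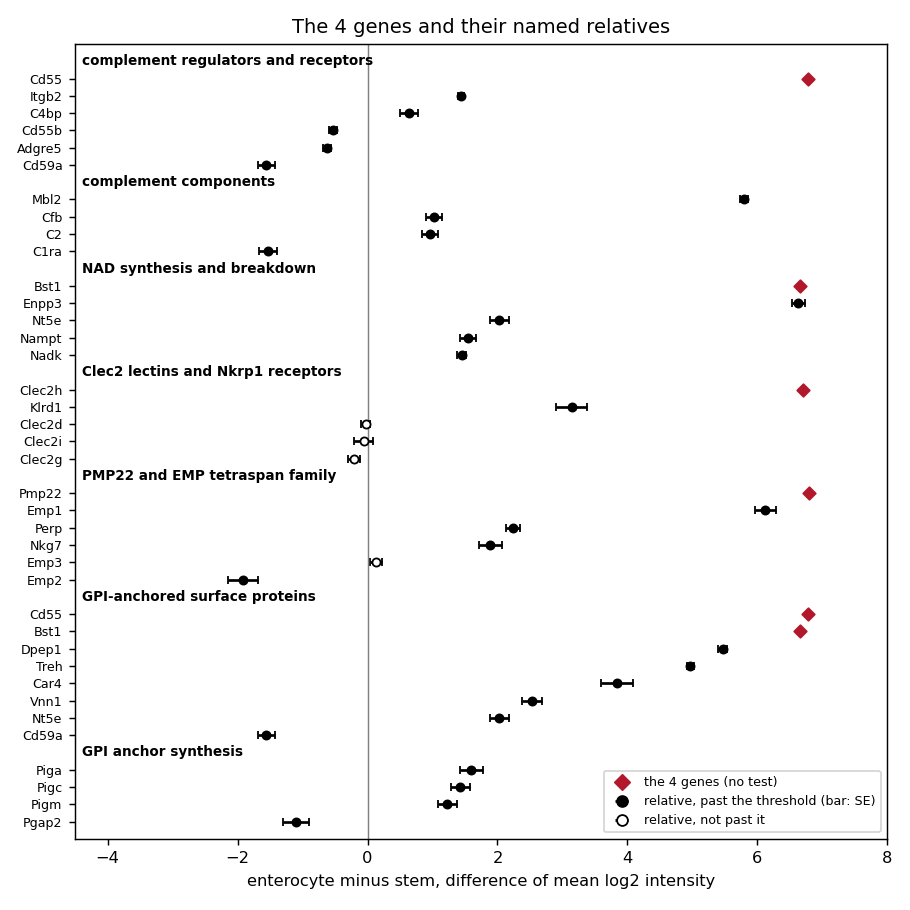
Enterocyte minus stem difference of mean log2 intensity (horizontal axis) of the 4 genes (diamonds, no test) and their named relatives (circles with bars of 1 SE, n = 2 arrays per group), grouped by list. Filled circles passed the threshold by limma and open circles did not; Emp1 at 6.12 and Enpp3 at 6.63 come closest to the 4 genes, while Cd55b, Clec2d, Clec2g, Clec2i and Emp3 lie between -0.53 and 0.13.

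Cd55 and Bst1 share the GPI anchor. Of 42 other measured GPI-anchored proteins 11 rose, 4 fell and 27 did not pass (35.7% called against 40.6% of all genes), at a median of 0.16, and 22 were below background in both groups. The largest rises were in brush border enzymes. The dipeptidase gene Dpep1 was 6.33 and 6.24 in the stem samples and 11.71 and 11.80 in the enterocyte samples and rose at least 39.7-fold over background (adjusted p = 0.00225 by limma). Treh, trehalase, rose at least 14.5-fold over background, Car4, a carbonic anhydrase, 14.3-fold, and Vnn1, a pantetheinase, 5.79-fold. Cd24a, an abundant epithelial surface protein, was 13.51 and 13.38 against 13.84 and 13.51 and did not pass (adjusted p = 0.326 by limma).

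Genes that build the GPI anchor went both ways, with 6 of 19 called higher and 4 called lower while 9 did not pass. That is 52.6% called against 40.6% of all genes, at a median of -0.02. Piga, a subunit of the enzyme of the first step, rose 3.04-fold, Pigc, another subunit of it, 2.70-fold, and Pigm, a mannosyltransferase, 2.35-fold. The dimmer probe sets of Piga and Pigc gave 0.88 and 0.01 and did not pass. Pgap2, which remodels the lipid of finished anchors, fell 2.14-fold (adjusted p = 0.0279 by limma). The transamidase subunit genes Pigs and Pigt differed by 0.35 and -0.65, past the threshold in opposite directions, and Gpaa1 of the same complex was -0.11 and did not pass.

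The 4 genes lie on different chromosomes, and the 5 measured genes on each side of each, in the gene order of RefSeq, went both ways or did not pass the test. Over all genes 18.2% were called higher and 22.4% lower. Near Cd55 on chromosome 1, 3 of 10 rose and 2 fell, with a median difference of 0.08. The highest was Lct, lactase, at 3.97 and the lowest Mcm6, a replication helicase subunit, at -1.96. Near Bst1 on chromosome 5, 4 of 10 rose and 3 fell, at a median of 0.06, with Lap3, an aminopeptidase, at 2.37 and Prom1, a membrane protein of the crypt, at -2.51. Near Clec2h on chromosome 6, 2 of 10 fell and 8 did not pass by limma, at a median of -0.06. Of these 10, 6 belong to the Clec2 and NKR-P1 cluster and none of those 6 passed, the highest being Klrb1a at 0.51 (4.01 and 3.64 against 4.16 and 4.51). Near Pmp22 on chromosome 11, 2 of 10 rose and 1 fell, at a median of 0.05 and a range from -1.48 to 1.21.

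**Figure D4:**
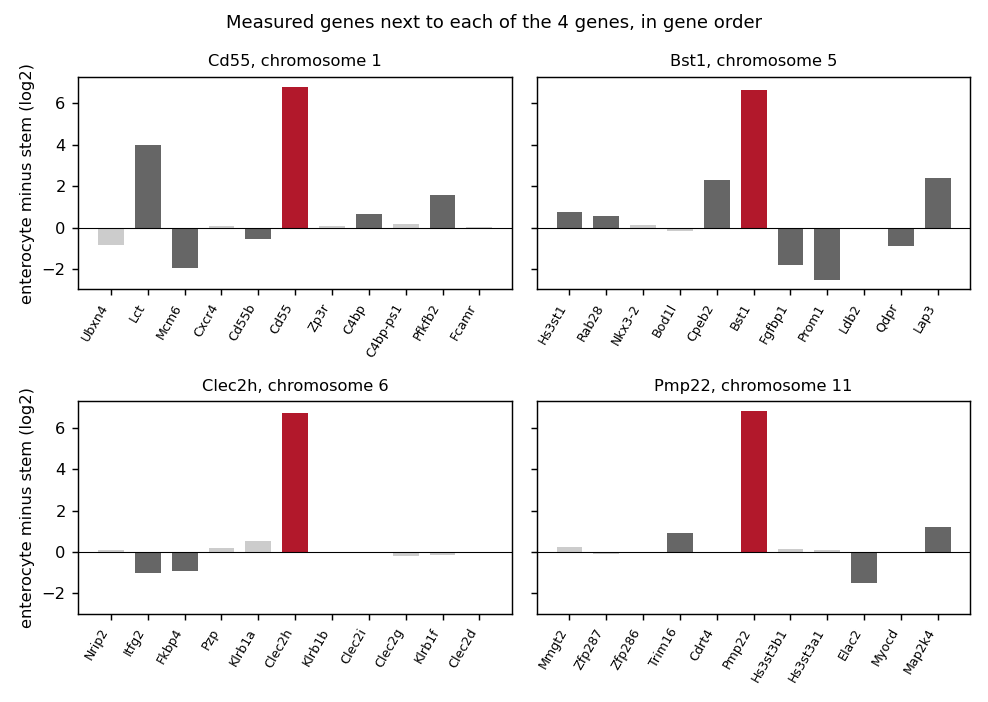
Enterocyte minus stem difference of mean log2 intensity (vertical axis, shared) of Cd55, Bst1, Clec2h and Pmp22 (red) and of the 5 measured genes on each side in gene order; spacing does not show distance. Dark grey bars passed the threshold by limma and light grey bars did not; the highest neighbour, Lct beside Cd55, reached 3.97.

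Markers of other cell types that the villus fraction could hold moved in part with the 4 genes. Over all genes 18.2% were called higher and 22.4% lower. Of 16 measured lymphocyte markers 11 rose and 5 did not pass by limma, at a median of 1.93. Their summed level was 936 and 1098 intensity units in the stem samples and 7094 and 9231 in the enterocyte samples. Ptprc, the common leukocyte antigen, was 5.03 and 5.00 against 8.64 and 9.53, whereas Cd2, Cd5 and Cd8b1 stayed below background on all arrays. Cd55 and Bst1 are also known from blood cells, and the part of lymphocytes in their difference was not tested. All 6 B cell markers were below background in both groups, with summed levels of 181 to 209 in the stem and 203 to 205 in the enterocyte arrays. Of 11 myeloid markers 3 rose and 2 fell. Tyrobp, Fcer1g and Fcgr3, which encode signalling and receptor chains of myeloid cells, differed by 2.46, 1.33 and 0.58. Fcgr3 lay below background in both groups. The 2 that fell were Lyz2 at -4.67 and Cd68 at -1.88. The summed level was 2231 to 3121 in the stem and 888 to 908 in the enterocyte arrays, but without Lyz2, a lysozyme gene, it was 889 and 925 in the stem and 853 and 778 in the enterocyte arrays.

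Of 4 measured Paneth cell markers, the known setting of Bst1 in the crypt, 1 fell and 3 did not pass. Their summed level was 35470 and 49844 in the stem samples and 3060 and 6993 in the enterocyte samples, most of the stem level being Lyz1. Without it the sum was 7833 and 14146 against 2782 and 4790. Lyz1, lysozyme of Paneth cells, was 14.75 and 15.12 in the stem samples and 8.12 and 11.11 in the enterocyte samples and fell (adjusted p = 0.0446 by limma), while Pnliprp2, a lipase, was 10.15 and 11.48 against 11.25 and 9.91. The part of Paneth cells in the Bst1 values was not tested. Of 8 measured markers of Schwann cells and glia, the known setting of Pmp22, 1 rose, 2 fell and 5 did not pass (37.5% called). Their summed level was 2001 to 2195 in the stem and 1277 to 1469 in the enterocyte arrays. The gap junction gene Gjb1, which epithelia also use, was the riser at 1.14, and S100b and Gfap were below background on all arrays. The 2 that fell changed more. Egr2 was 8.93 and 8.95 in the stem samples and 4.45 and 4.19 in the enterocyte samples, a difference of -4.62. Mbp was 10.16 and 9.93 against 8.59 and 8.57, a difference of -1.47. Among fibroblast markers 1 of 11 rose and 1 fell (18.2% called in either direction), with 7 below background in both groups. All 8 endothelial and 3 red cell markers were below background in both groups on their group means. Of the endothelial markers 1 passed the test (12.5% called), Eng, higher by 0.47 (adjusted p = 0.0353 by limma). No red cell marker passed.

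**Figure D5:**
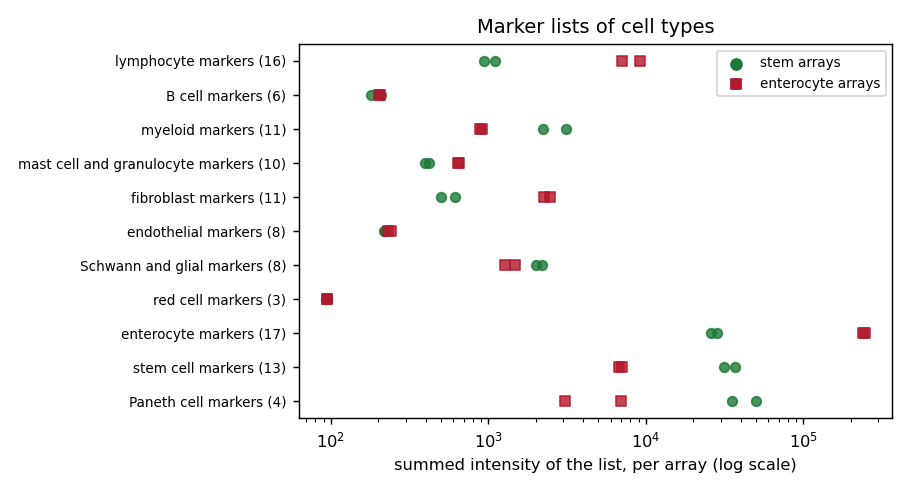
Summed intensity of each marker list (horizontal axis, log scale) on each array, circles for stem and squares for enterocyte arrays, with the number of measured genes in brackets. Lymphocyte markers rise from 936 and 1098 to 7094 and 9231, B cell markers lie between 181 and 209 on all arrays, and Paneth cell markers, mostly Lyz1 in the stem arrays, go from at least 35470 to at most 6993.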

How the data were processed

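The authors deposited normalized intensity values per probe set on a linear scale. Per the submitters' processing notes RMA was used, without a version; between-array scaling was not given in the sources used here. As the design had planned for log2 values, each deposited intensity was first turned into its log2, without a pseudocount. Of 22690 probe sets, the platform annotation gave 20380 exactly 1 gene symbol and 691 several; 20351 matched RefSeq genes of GRCm38.p6 by Entrez identifier, and 0 symbols changed. Promoter windows come from RefSeq. Columns without a sample numbered 0.

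Differences were tested two-sided in R 4.3.3 by limma 3.58.1 (lmFit, eBayes) on all 12393 genes, with 2 residual degrees of freedom; SE is limma's. The 4 genes were in that fit and its counts, but no p is given for them. Steps were tested on simulated data. The 4 genes and all lists were chosen with earlier results of these data known. Named were the 4 genes, up to 4 called genes of each related list with the largest difference, fixed closest relatives, the 3 most alike genes and the adjoining ones in order; Parp1, Parp2, Cr1l, Cd24a, Pigs, Pigt, Gpaa1, marker genes and chromosomal neighbours were added after their values were seen. Alternatives changed the probe set, scaling, pseudocount, filter, variance model, replicate block and arrays used. The number of arrays limits the precision.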

Additional observations from a re-analysis of the deposited data

How the results depend on the processing

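The 4 genes stayed higher in enterocytes under every alternative run on them. With the mean over probe sets the differences were 5.11 for Cd55, 6.97 for Bst1 and 5.74 for Clec2h; with the dimmest probe set 3.44, 7.27 and 6.56. Centring on 9 reference genes gave Cd55 6.39, Bst1 6.28, Clec2h 6.33 and Pmp22 6.41, a pseudocount of 16 gave 6.16, 6.18, 6.56 and 6.10, and quantile normalization gave Cd55 6.67 and Clec2h 6.86. Leaving out 1 array at a time gave 6.74 to 6.82 for Cd55, 6.48 to 6.85 for Bst1, 6.64 to 6.78 for Clec2h and 6.72 to 6.87 for Pmp22. Over all genes, leaving out 1 array gave 0 to 663 higher and 0 to 1058 lower calls, against 2257 and 2779, and among related genes 0 to 12 higher and 0 to 4 lower, against 32 and 15. The 0 came without either stem array, with 4675 and 4817 genes at an unadjusted p below 0.05 by limma. Reference gene centring moved the median of all genes to -0.387. It made 1772 genes higher and 6968 lower, so that 20.3% of calls were higher instead of 44.8%, and 57 related genes lower. By list, in the order of the report, lower calls became 8, 7, 9, 5, 2, 16 and 11, against 3, 2, 2, 0, 1, 4 and 4. Emp2 turned to 0.25 on its dimmest probe set, and 6 other named genes lost their call with that choice; the cause was not tested. Quantile normalization, limma-trend, the filters on dim genes and the exclusion of s_at, x_at and a_at probe sets moved neither count of calls, over all genes or over all related genes, by over 1.5 times. Within lists, quantile normalization made 7 NAD genes higher, and without genes below background 7 GPI-anchored genes were higher. That filter left out genes whose mean over all 4 arrays lay below the level. Klrd1 was thus no longer tested, although its enterocyte values of 7.23 and 7.61 lay above it. The replicate number as a block left 1 complement regulator higher and, of 48 called genes checked, ended the calls of C4bp (adjusted p = 0.0709 by limma) and Pigs (0.0647); same-numbered arrays deviated together at r = 0.0504 over genes, so the numbers are not shown to pair the samples. A background level at the median of the genes of other organs, log2 4.90 and added after the data were seen, gave at least 95.1-fold for Pmp22. Of the Cd55 stem arrays only replicate 2 lay below that level. Raising that array to it gave 108-fold for Cd55, which is no bound by the rule used here.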

Other observations

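Fn1, chosen after its values were seen, was listed as a fibroblast marker and encodes the matrix protein fibronectin. It was 4.98 and 5.43 in the stem samples and 10.96 and 10.81 in the enterocyte samples on its brighter probe set, a rise of 5.68 ± 0.20 SE (adjusted p = 0.00265 by limma). The dimmer probe set, 1437218_at, gave 0.79. The collagen genes Col1a1, Col1a2 and Col3a1 lay below background on all arrays, and Vim, vimentin, fell by 2.26 on the log2 scale.

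The enterocyte arrays differed from each other in several genes of cells other than enterocytes, all chosen after their values were seen. Enterocyte replicate 2 was higher than replicate 1 for the Paneth cell genes Itln1 (11.66 against 8.14), Mmp7 (9.24 against 5.99) and Lyz1 (11.11 against 8.12). It was also higher for the mast cell protease genes Mcpt1 (6.56 against 4.54) and Mcpt2 (6.70 against 4.82), and for the muscle actin gene Acta1 (9.09 against 7.07). Other genes of such cells were lower in replicate 2. These were the Paneth cell marker Pnliprp2 (9.91 against 11.25), the mast cell marker Kit (8.02 against 8.69) and the actin gene Acta2 (6.29 against 7.01). Of the 4 measured Paneth cell markers only Pnliprp2 was lower in replicate 2. The dimmer Cd55 probe set was higher in enterocyte replicate 2, at 10.13 against 8.85. Whether these go together was not tested.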
